A study of Saccharomyces cerevisiae with 46 samples.

Results

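The positions of meiotic DNA double-strand breaks (DSBs) in the *hop1-loop2 pch2* double mutant of budding yeast were compared with those in the *rad50S* strain that serves as its control. The comparison uses 4 of the 46 samples of the series, taken by title: 2 libraries titled *hop1-loop2pch2rad50S* and 2 titled *rad50S*, all from cultures 6 h into meiosis. Breaks were mapped by covalent-complex sequencing (CC-seq), in which reads are meant to start at DNA ends that carried Spo11. A hit is 1 read placed at 1 position of 1 strand, and copied reads or other ends may be among the hits. The strain list of the study gives both strains as diploids homozygous for *rad50S::URA3*. It names no strain background for them, and the study placed their reads on an SK1 genome build. The tested strain is in addition homozygous for *hop1-loop2*, in which basic residues of the second loop of the Hop1 chromatin-binding region are changed to alanine, and for *pch2Δ::kanMX*. The same list gives other differences: the *rad50S* strain carries the *HIS4::LEU2* insert and *leu2::hisG* on both homologs, with *ho::hisG*, and the double mutant is *leu2::hisG/LEU2* with *ho::LYS2* and *lys2*. The *ura3* alleles are also written differently, and heterozygous *his3::hisG* and *trp1::hisG* are given for the *rad50S* strain only. The genotype entry of the labels names another strain for all of these samples, so the titles were followed. The study's table of CC-seq libraries does not list the double mutant, so the strain behind its 2 libraries was inferred from the genotype in the title. For a second comparison the 2 *hop1-loop2 rad50S* libraries were used.

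Meiotic recombination starts when Spo11, a relative of topoisomerases, cuts DNA and stays bound to the 5′ ends. Spo11 acts mostly in short stretches of open chromatin called hotspots, and how much each is cut depends on the proteins of the chromosome axis, among them Hop1, a HORMA-domain protein that brings the break machinery to the axis. Pch2 is an AAA+ ATPase that takes Hop1 off chromosomes, above all once homologs synapse, and that also returns Hop1 to a form able to bind. The *rad50S* allele leaves Spo11 on the ends and so stops repair, which lets the breaks pile up where they were made.

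The double-mutant libraries held 3614810 and 1026669 hits, against 7730583 and 7577582 in the *rad50S* libraries. Values are hits scaled by the authors to a total of 1000000 per library (HpM), so they give where breaks fell and not how many there were. A smaller number of cells in meiosis, fewer breaks per cell and a lower yield or depth of the library cannot be told apart from these totals. By gels and Southern blots, the study reported fewer breaks in *hop1-loop2 pch2Δ* than in *hop1-loop2*. It found the timing of premeiotic replication in *hop1-loop2 pch2Δ* to be like wild type. Stretches where the smoothed average of all 4 libraries passed 0.2 HpM per bp were taken as hotspots. There were 3589 of them, 201 bp long at the median, and together they covered 7.61% of the span mapped. They took 84.7% and 63.9% of all hits in the double mutant and 89.1% and 87.6% in *rad50S*. Between hotspots the density was 13.7 and 32.4 HpM per kb in the double mutant and 9.76 and 11.1 HpM per kb in *rad50S*. Replicate 2 of the double mutant thus stood apart, with the fewest hits and the highest level between hotspots, 30.8 to 34.5 HpM per kb on every chromosome. In that library 1 strand position held over 50% of the hits in 320 hotspots, against 32 in double-mutant replicate 1 and 11 and 18 in the *rad50S* libraries.

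As a check on the titles, stretches of at least 400 bp without a single hit in either double-mutant library were listed where both *rad50S* libraries had at least 10 hits. The longest of the 10 found was chrII:608633-610228 (SK1 assembly of the files, as all positions here), 1596 bp with 0 and 0 hits in the double mutant, against 11 and 15 hits in *rad50S*. The next was 516 bp long. In the reverse search, for stretches without a hit in *rad50S*, 87 were found, of up to 940 bp. *PCH2* (YBR186W) is on chromosome II in the RefSeq annotation of yeast. An annotation of the SK1 assembly was not used here, so whether this stretch is *PCH2*, and which genes the hotspots lie in, was not determined.

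Hotspots changed in both directions in the double mutant. Of 3589 hotspots, 1425 were lower (39.7%) and 738 were higher (20.6%) in the double mutant (limma on log2(HpM + 1), Benjamini-Hochberg adjusted p below 0.05), and 582 of the lower and 275 of the higher ones changed by at least 4-fold on that scale. The log2 change ran between −5.85 and 6.01, with 10% of hotspots below −2.46 and 10% above 1.68. The median was −0.50, and fewer of the hits of the double mutant fell in hotspots at all. When each library was centred on its median hotspot, 1091 were lower and 1239 higher, and with the TMM scaling of edgeR 1190 were lower and 1185 higher. With hotspots called on *rad50S* alone 1574 were lower and 476 higher, and with those called on the double mutant alone 1022 and 960. The excess of lower hotspots thus depended on the scale and on the set of hotspots. Without *rad50S* replicate 1 the counts were 901 lower and 488 higher, and without *rad50S* replicate 2 they were 879 and 421. With each strand position counted once, 782 were lower and 406 higher. Without replicate 2 of the double mutant they were 1448 and 1028, and the median was −0.26.

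Across hotspots, log2 HpM correlated at 0.945 between the double-mutant libraries, at 0.985 between the *rad50S* libraries, and at 0.576 to 0.627 between genotypes. These are descriptions over 3589 hotspots that share libraries. The 100 strongest hotspots of each genotype had 34 in common (34.0%), whereas those of the replicates shared 92 in the double mutant and 85 in *rad50S*. Of the 20 strongest, 5 were in common between genotypes. With *hop1-loop2 rad50S*, the double mutant had 72 of its 100 strongest and 16 of its 20 strongest in common. Called on each genotype alone, there were 3328 hotspots in the double mutant and 3485 in *rad50S*. Of the double-mutant set 82.7% overlapped a *rad50S* hotspot, and of the *rad50S* set 78.6% overlapped a double-mutant hotspot, against 84.5% and 85.8% between the double-mutant replicates and 95.3% and 96.7% between the *rad50S* replicates.

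**Figure D1:**
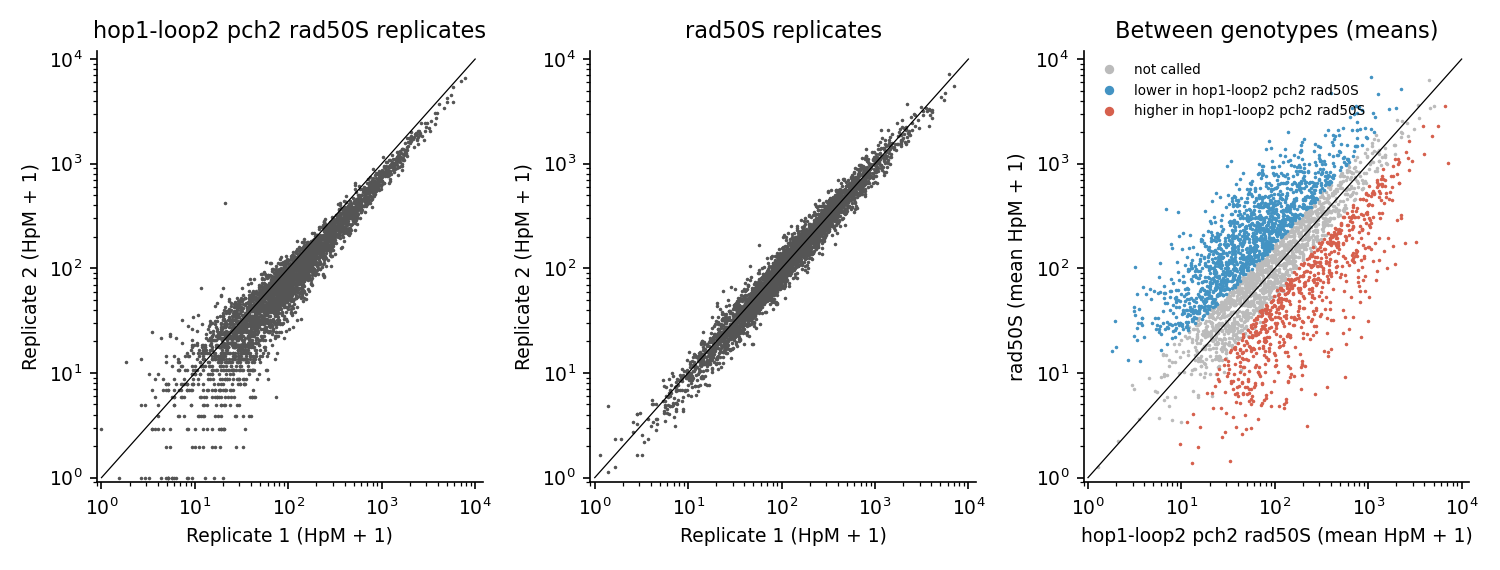
HpM + 1 in 3589 hotspots on log axes: double-mutant replicates (left), *rad50S* replicates (middle) and the genotype means (right), where blue and red mark the 1425 lower and 738 higher hotspots and the line marks equal values. Replicates lie close to the line, with more scatter at low values in the double mutant, and the genotypes form a broad cloud around it.

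The hotspots with the largest falls were active in *rad50S* and kept little of that level in the double mutant. By the naming rule these were the 5 lowest log2 changes among called hotspots that averaged 50 HpM or more and whose genotypes did not overlap. Over all hotspots, both double-mutant libraries lay below both *rad50S* libraries in 52.6% and above them in 29.2%. The hotspot at chrIII:87279-87661 had 3.04 and 8.77 HpM in the double mutant, against 442.0 and 295.6 HpM in *rad50S* (log2 change −5.85, SE 0.44, adjusted p = 2.2e-06, limma). The *HIS4::LEU2* and *leu2* alleles by which the strains differ are also on chromosome III, and their part in this difference and that of *hop1-loop2* cannot be told apart. The *hop1-loop2 rad50S* libraries, in which *PCH2* is not deleted by title, had 3.19 and 1.50 HpM there. The hotspot at chrXII:114941-115140 had 11.6 and 4.87 HpM in the double mutant, against 381.1 and 306.6 HpM in *rad50S* (log2 change −5.32, SE 0.40, adjusted p = 2.2e-06, limma). At chrX:597957-598249 the double mutant had 35.4 and 30.2 HpM, against 971 and 1169 HpM in *rad50S* (log2 change −4.98, SE 0.29). Both strong sites on chromosomes XII and X therefore kept little of their *rad50S* level, 0.0240 of the mean on XII and 0.0307 on X. A weaker site, chrIII:280473-280608, had 2.49 and 1.95 HpM in the double mutant, 9 and 2 hits, against 83.0 and 119 HpM in *rad50S* (log2 change −4.97, SE 0.44). The last of the 5, chrVII:250744-251013, had 34.0 and 25.3 HpM in the double mutant and 778 and 1100.5 HpM in *rad50S* (log2 change −4.93, SE 0.31). That the genotypes do not overlap in these 5 follows from the rule.

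The hotspots with the largest rises were low in *rad50S*. The hotspot at chrIII:125630-126129 had 663 and 463 HpM in the double mutant, against 11.1 and 5.15 HpM in *rad50S*, a mean 69.2 times as high (log2 change 6.01, SE 0.38, adjusted p = 1.2e-06, limma). At chrVII:530892-531111 the double mutant had 419.9 and 297 HpM, against 7.76 and 4.88 HpM in *rad50S* (log2 change 5.62, SE 0.36). A pair of neighbours on chromosome IV followed. The one at chrIV:466097-466298 had 309 and 233 HpM in the double mutant and 5.17 and 5.41 HpM in *rad50S* (log2 change 5.42, SE 0.35). The one at chrIV:464909-465147 had 1003 and 679.9 HpM in the double mutant and 21.9 and 19.9 HpM in *rad50S* (log2 change 5.24, SE 0.31), which made it the 184th strongest site of the double mutant and the 3240th of *rad50S*. As for the falls, the rule fixed that the groups do not overlap, and in these 4 hotspots replicate 1 of the double mutant had the higher value each time. The fifth, chrX:502258-502404, was unlike the others: it had 19.9 and 423 HpM in the double mutant and 0.388 and 3.83 HpM in *rad50S* (log2 change 5.18, SE 1.06, adjusted p = 0.0012, limma), and a single strand position held 97.7% of its hits in double-mutant replicate 2. Without that library its log2 change was 3.01, and with each strand position counted once it was 1.23 (adjusted p = 0.35, limma). For the other 9 hotspots the adjusted p stayed at or below 0.0116 under every alternative in which they were tested. With each strand position counted once the changes were smaller, with a log2 change of −2.15 at chrVII:250744, 3.26 at chrIII:125630 and 2.49 at chrIV:464909.

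The strongest sites of the 2 genotypes overlapped only in part, and more of those of the double mutant were shared with *hop1-loop2 rad50S* (16 of the 20 strongest). In the double mutant the leading hotspot was chrVIII:118096-119199, with 7813 and 6576 HpM, against 1243 and 779.5 HpM in *rad50S*, where it ranked 147th (log2 change 2.86, SE 0.32, adjusted p = 1.8e-05, limma). It was followed by chrVII:602416-603704, with 7094 and 6138 HpM in the double mutant and 4048 and 3109.6 HpM in *rad50S* (log2 change 0.90, SE 0.31, adjusted p = 0.024, limma), ranking 8th there. Next came chrII:710566-711909, with 5829 and 5406 HpM in the double mutant and 2486 and 2120.2 HpM in *rad50S* (log2 change 1.29, SE 0.29, adjusted p = 0.0024, limma). The fourth, chrVII:399157-399970, was among the strongest of both genotypes, with 5497 and 4547 HpM in the double mutant and 3826 and 3351 HpM in *rad50S* (log2 change 0.48, SE 0.30, adjusted p = 0.18, limma). It ranked 4th in the double mutant and 7th in *rad50S*, and passed the test only on other scales, as when centred on the median hotspot (log2 change 1.02, adjusted p = 1.8e-04, limma), or in other fits. The fifth, chrXVI:463440-463935, had 5777 and 3864 HpM in the double mutant and 2137 and 1528 HpM in *rad50S* (log2 change 1.39, SE 0.32, adjusted p = 0.0030, limma). Its strongest strand position held 22.8% and 21.7% of the hits in the double mutant and 14.3% and 15.0% in *rad50S*. The calls at chrII:710566 and chrVII:602416 were lost without either *rad50S* library (adjusted p = 0.078 and 0.16, and 0.20 and 0.45, limma), and that at chrXVI:463440 without *rad50S* replicate 2 (0.17).

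The leading hotspot of *rad50S*, chrXVI:345192-345682, had 1201 and 947 HpM in the double mutant, where it ranked 123rd, and 6271 and 7249.9 HpM in *rad50S* (log2 change −2.66, SE 0.30, adjusted p = 1.7e-05, limma). The second, chrIV:823281-824583, had 5025 and 3899 HpM in the double mutant and 6976 and 5542 HpM in *rad50S* (log2 change −0.49, SE 0.31, adjusted p = 0.19, limma). Its direction turned when libraries were centred on their median hotspot (log2 change 0.051), and it ranked 7th in the double mutant and 2nd in *rad50S*. The third, chrXIII:359605-360728, had 2802 and 1686 HpM in the double mutant and 5601 and 4687 HpM in *rad50S* (log2 change −1.24, SE 0.33, adjusted p = 0.0063, limma), a call lost without either *rad50S* library (0.16 and 0.086). With each strand position counted once, the log2 change was −0.08 there and −0.12 at chrXVI:345192, and neither passed (adjusted p = 0.51 and 0.55, limma). The fourth, chrII:650465-651261, fell to 429.9 and 369 HpM in the double mutant, against 5436 and 4037 HpM in *rad50S* (log2 change −3.55, SE 0.29, adjusted p = 3.3e-06, limma). It ranked 441st in the double mutant. The fifth, chrXIII:770347-771335, had 1465 and 1099.7 HpM in the double mutant and 5049 and 4294 HpM in *rad50S* (log2 change −1.87, SE 0.30, adjusted p = 2.1e-04, limma). Sites of similar rank in *rad50S* thus differed widely in how much of their share remained in the double mutant, between 0.0843 of the *rad50S* mean at chrII:650465 and 0.713 at chrIV:823281.

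**Figure D2:**
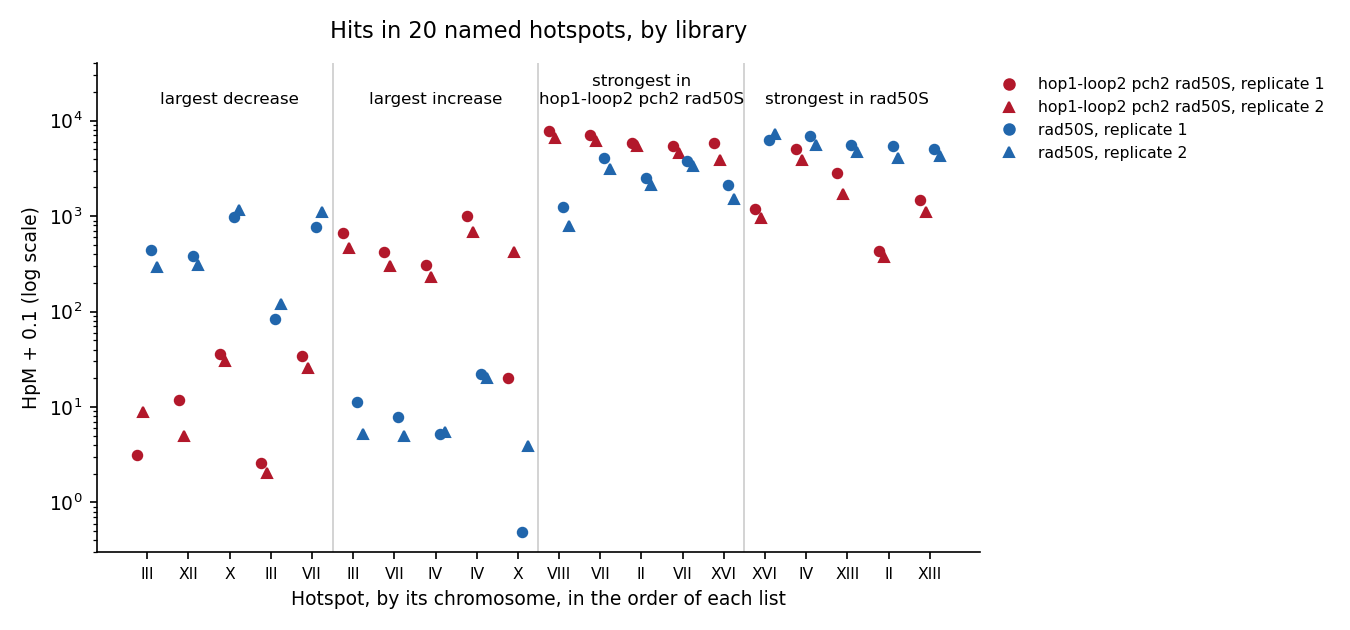
HpM (plus 0.1, log scale) in each of the 4 libraries for the 20 named hotspots, in the order of the text: 5 largest decreases, 5 largest increases, 5 strongest of the double mutant and 5 strongest of *rad50S*, labelled by chromosome. The replicates of a genotype lie together except at the last of the increases, on chromosome X, where double-mutant replicate 2 has 423 HpM and replicate 1 has 19.9 HpM.

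The change did not follow one direction of hotspot strength. When hotspots were split into 5 equal groups by their mean over the 4 libraries, the median log2 change was −0.38 in the weakest group, −0.43, −0.60 and −0.67 in the next ones, and −0.34 in the strongest, against −0.50 over all. The strongest group held 295 lower (41.1%) and 205 higher hotspots (28.6%), and the fourth group 347 (48.3%) and 139 (19.4%), against 39.7% lower and 20.6% higher over all hotspots. By length the medians behaved alike, with a median of −0.37 for hotspots of up to 120 bp, −0.67 for those of 231 to 363 bp and −0.33 for the longest. By distance from the nearest chromosome end, the median was −0.57 for the 64 hotspots within 20 kb, −0.65 for 222 at 20 to 50 kb, −0.89 for 472 at 50 to 100 kb, and −0.42 for the 2831 farther in. In the band from 50 to 100 kb, 239 hotspots were lower (50.6%) and 65 were higher (13.8%), against the same 39.7% and 20.6% over all. Without the 3 shortest chromosomes (I, VI and III) the median in that band was −0.80. These groups are descriptions, and their differences were not tested.

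Changes ran together over long stretches. In 10 kb tiles, 355 of 1210 were lower in the double mutant (29.3%) and 295 were higher (24.4%), with a median log2 change of 0.01 (limma on log2(HpM + 1)). The log2 changes of tiles next to each other correlated at 0.54 over 1193 pairs. The correlation was 0.44 for tiles 20 kb apart, 0.22 at 50 kb and 0.01 at 100 kb, as a description over tiles that share libraries. Called tiles lay beside tiles called the same way for 69.9% of the lower and 72.5% of the higher ones. The level between hotspots amounted to 137 and 324 HpM per tile in the double mutant and 97.6 and 111 HpM per tile in *rad50S*. With that level subtracted, 407 tiles were lower and 180 higher. Without replicate 1 of the double mutant 359 were lower and 494 higher, without *rad50S* replicate 1 they were 236 and 210, and without *rad50S* replicate 2 they were 220 and 204. When centred on the median tile, 293 were lower and 381 higher.

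In the tiles with the largest falls it was the double mutant that lay low. The tile at chrVII:450001-460000 had 223 and 368 HpM in the double mutant and 2533 and 2213 HpM in *rad50S* (log2 change −3.04, SE 0.18). The tile at chrXII:110001-120000, which holds the fallen hotspot described above, had 128 and 257 HpM in the double mutant and 1227 and 1436 HpM in *rad50S* (log2 change −2.86, SE 0.29). At chrIII:250001-260000 the double mutant had 337 and 286 HpM and *rad50S* 2245 and 2076 HpM (log2 change −2.79, SE 0.18). In the tiles with the largest rises it was *rad50S* that lay low. The tile at chrIII:120001-130000 had 1383 and 1281 HpM in the double mutant and 42.7 and 37.1 HpM in *rad50S* (log2 change 5.03, SE 0.57). At chrX:440001-450000 the double mutant had 1574 and 1262 HpM, against 50.4 and 53.7 HpM in *rad50S* (log2 change 4.73, SE 0.50). The tile at chrIV:460001-470000 had 3703 and 3075 HpM in the double mutant and 147 and 169 HpM in *rad50S* (log2 change 4.41, SE 0.19). The highest adjusted p of these 6 tiles was 2.0e-14 in the limma fit, which pools the spread across tiles. With the level between hotspots subtracted, the log2 change at chrIII:250001 was −7.33 (adjusted p = 0.12, limma), larger than without subtraction and no longer called. In double-mutant replicate 2 that level was 34.5 HpM per kb on chromosome III, above its 286 HpM in this 10 kb tile. That library was counted as having no hits left there, which sets the size of the change. The double-mutant values at chrXII:110001 were also below the genome-wide level between hotspots, 137 and 324 HpM per tile.

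The longest unbroken run of higher tiles was chrIV:410001-570000, 16 tiles in which the double mutant had 29184 and 23586 HpM and *rad50S* 5962 and 6245 HpM. The mean was 4.32 times as high in the double mutant, and 47 of the 57 hotspots inside were higher and 0 were lower. The run at chrIII:90001-170000 (8 tiles) had 8891 and 8322 HpM in the double mutant and 857 and 789.8 HpM in *rad50S*, a mean 10.5 times as high, and all 23 hotspots in it were higher. It begins next to the fallen hotspot at chrIII:87279. The run at chrXIV:590001-670000 (8 tiles) had 18481 and 15900.0 HpM in the double mutant and 4709 and 4728 HpM in *rad50S*, 3.64 times as high, with 23 of 28 hotspots higher. Together these 3 stretches took in 5.66% and 4.78% of all hits in the double mutant and 1.15% and 1.18% in *rad50S*. The longest run of lower tiles, chrXIV:110001-200000 (9 tiles), had 3148 and 4257 HpM in the double mutant and 9145 and 10080.1 HpM in *rad50S*, and 23 of its 25 hotspots were lower. The run at chrVII:180001-260000 (8 tiles) had 3699.8 and 4583 HpM in the double mutant and 12157 and 12278 HpM in *rad50S*, with 20 of 23 hotspots lower. That at chrX:230001-300000 (7 tiles) had 2141 and 3093 HpM in the double mutant and 8286 and 9002 HpM in *rad50S*, with 15 of 18 hotspots lower. Over all hotspots 20.6% were higher and 39.7% lower. The runs were picked by calls on the same hits, so the levels and the hotspot counts in them follow in part from that choice and are descriptions. The *hop1-loop2 rad50S* libraries differed from *rad50S* in the same direction in each of these runs. Their mean was 3.20, 6.23 and 2.70 times that of *rad50S* in the higher runs on chromosomes IV, III and XIV. In the lower runs on chromosomes XIV, VII and X it was 0.507, 0.527 and 0.335 of the *rad50S* mean. Centromere positions of the SK1 assembly were not used here, and the distance of these stretches from centromeres was not measured.

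**Figure D3:**
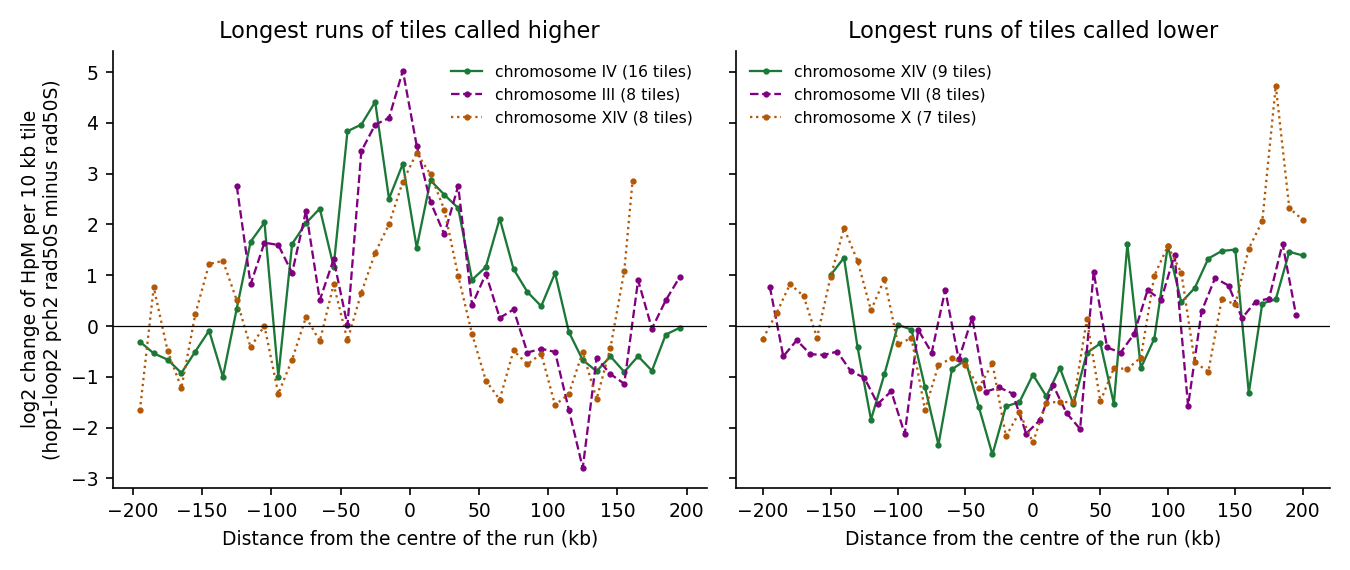
log2 change of HpM per 10 kb tile (double mutant minus *rad50S*) against distance from the centre of the run, for the 3 longest runs of higher tiles (left) and of lower tiles (right). The rises form peaks that reach 5.03 on chromosome III and 4.41 on chromosome IV, and the falls are shallower and flatter on this scale. The tiles include the level between hotspots, 137 and 324 HpM per tile in the double mutant. Its part in the depth of the falls was not tested.

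At the level of whole chromosomes the double mutant had its lowest shares, relative to *rad50S*, on chromosomes I and VI, the shortest ones. Of the 16 chromosomes 4 were lower (25.0%) and 4 were higher (25.0%) by limma on log2 shares. Chromosome I held 1.02% and 1.20% of the hits of the double mutant, against 2.42% and 2.15% in *rad50S* (log2 change −1.04, SE 0.11, adjusted p = 0.0045, limma). Chromosome VI held 2.03% and 2.14% in the double mutant, against 3.35% and 3.13% in *rad50S* (log2 change −0.64, SE 0.05, adjusted p = 0.0024, limma). On both chromosomes the mean of *hop1-loop2 rad50S* was lower still. It was 0.379 of the *rad50S* mean on I and 0.577 on VI, against 0.487 and 0.642 in the double mutant. Chromosome XV, a long one, was also lower, with 7.63% and 7.81% in the double mutant and 9.25% and 9.38% in *rad50S* (log2 change −0.27, SE 0.02, adjusted p = 0.0024, limma). Chromosome XIII fell by 0.08 on the log2 scale (SE 0.02, adjusted p = 0.046, limma). Chromosome III, the third shortest, went the other way: it held 2.71% and 2.65% in the double mutant and 2.26% and 1.89% in *rad50S* (log2 change 0.37, SE 0.10, adjusted p = 0.046, limma). Chromosome V was higher too, with 5.49% and 5.33% in the double mutant and 4.13% and 4.13% in *rad50S* (log2 change 0.39, SE 0.02, adjusted p = 0.0024, limma). Chromosomes XII and II were higher by 0.16 and 0.13 on the log2 scale (SE 0.04 and 0.02, adjusted p = 0.046 and 0.0069, limma). Counted on hotspot hits alone, chromosome XII held 5.95% and 5.74% in the double mutant and 5.54% and 5.69% in *rad50S*, a smaller gap. Chromosome II held 8.06% and 8.48% in the double mutant and 7.35% and 7.29% in *rad50S* on that count.

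For the other 8 chromosomes the adjusted p lay between 0.056 and 0.40 and the log2 change between −0.02 and 0.12. With so few libraries, the smallest two-sided p of an exact permutation test on 1 chromosome is 0.333, so each call rests on the pooled spread of limma. Chromosomes I, V, VI and XV passed under all 13 alternatives. Chromosome II passed under 9, chromosome III under 9, and XII and XIII under 6 each. Higher chromosomes numbered 2 without double-mutant replicate 1, 1 without double-mutant replicate 2 and 2 without *rad50S* replicate 2, and lower ones 3 each time.

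**Figure D4:**
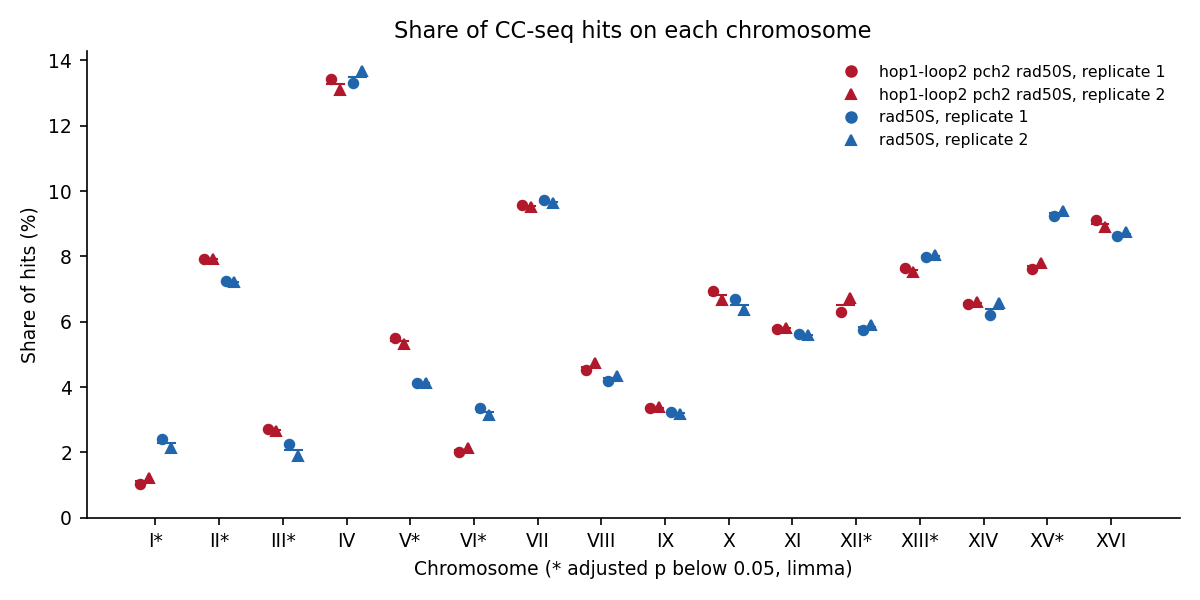
Share of all hits on each of the 16 chromosomes in the 4 libraries, with genotype means as lines (n = 2 each). Double-mutant libraries lie below *rad50S* on chromosomes I, VI, XIII and XV and above it on II, III, V and XII, each marked with an asterisk.

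Within chromosome I the fall was broad: 50 of its 63 hotspots were lower (79.4%, against 39.7% of all hotspots) and 0 were higher, the median log2 change was −1.93, and 2 hotspots had a value above 0. On chromosome VI, 65 of 100 hotspots were lower and 3 were higher, with a median of −1.45. On chromosome III, by contrast, 26 of 96 were lower (27.1%) and 37 higher (38.5%, against 20.6% of all hotspots), and it held both the largest fall and the largest rise of the named hotspots. On chromosome V, 55 of 166 were lower (33.1%) and 44 higher (26.5%), with a median of −0.19. Of the tiles on chromosome I 15 of 23 were lower and 0 higher, and on chromosome VI 16 of 30 were lower and 1 was higher, against 29.3% lower and 24.4% higher over all tiles.

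Hits between hotspots moved with the shares of chromosomes I and VI. In *rad50S*, chromosome I had 22.1 and 20.6 HpM per kb between hotspots and chromosome VI 15.9 and 16.8 HpM per kb, whereas the other 14 chromosomes lay between 8.21 and 10.5 in replicate 1 and between 9.39 and 11.7 in replicate 2. In the double mutant chromosome I had 13.1 and 31.3 HpM per kb and chromosome VI 11.8 and 31.6 HpM per kb, close to the 13.7 and 32.4 HpM per kb of the whole genome in those libraries. At over 1 kb from every hotspot, chromosome I still had 9.54 and 9.15 HpM per kb in *rad50S*, against 5.26 and 6.07 HpM per kb over the genome, whereas chromosome VI had 6.04 and 6.57 HpM per kb. The part of this density in the difference in shares was not tested. Counted on hotspot hits alone, chromosome I held 0.878% and 0.838% in the double mutant and 2.19% and 1.95% in *rad50S*, and chromosome VI 2.01% and 1.99% in the double mutant and 3.27% and 3.05% in *rad50S*.

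**Figure D5:**
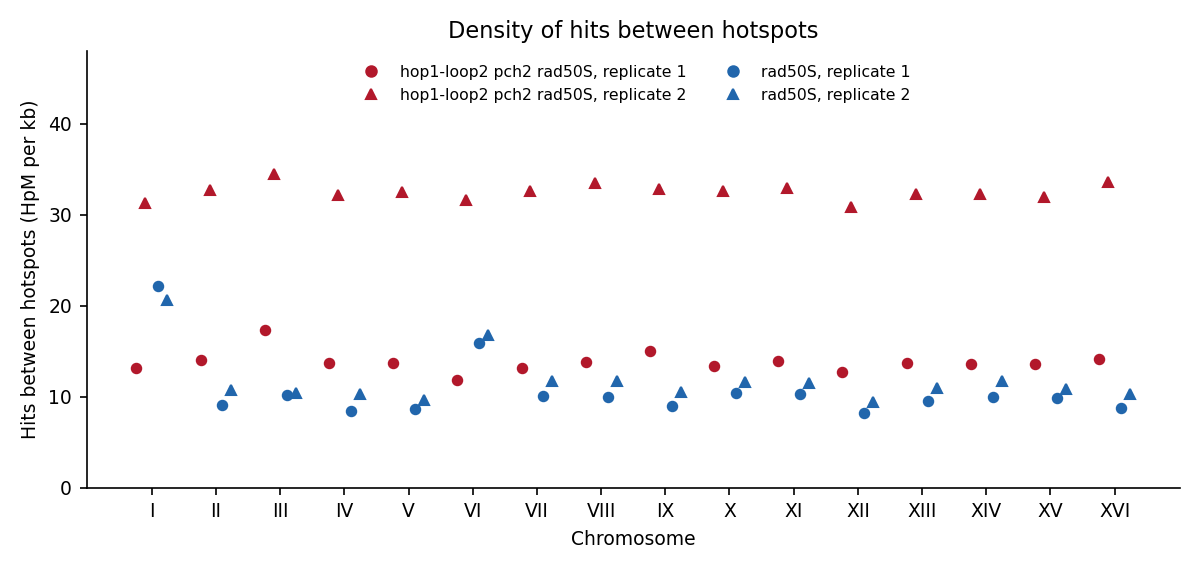
Density of hits between hotspots (HpM per kb) on each chromosome in the 4 libraries. Double-mutant replicate 2 lies at 30.8 to 34.5 on every chromosome, and the *rad50S* libraries are higher on chromosomes I and VI than on the other 14.

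To read the loss of *PCH2* apart from *hop1-loop2*, the double mutant was set against the *hop1-loop2 rad50S* libraries, which held 6277735 and 7985420 hits. The study's table of CC-seq libraries names a strain for these that its strain list does not hold. Other differences between that strain and the double mutant are thus not known, and their part cannot be told apart from that of *PCH2*. Log2 HpM of the double mutant correlated at 0.904 to 0.942 with these libraries over the hotspots. In a limma fit over all 6 libraries, 398 hotspots were lower (11.1%) and 145 were higher (4.04%) in the double mutant than in *hop1-loop2 rad50S*, with a median log2 difference of −0.23. At chrIII:87279 the difference did not pass (3.04 and 8.77 HpM in the double mutant and 3.19 and 1.50 HpM in *hop1-loop2 rad50S*; log2 difference 0.96, SE 0.48, adjusted p = 0.19, limma). At chrVII:250744 the double mutant (34.0 and 25.3 HpM) was lower than *hop1-loop2 rad50S* (76.6 and 92.0 HpM; log2 difference −1.48, SE 0.26, adjusted p = 0.011, limma). At chrVII:530892 it was higher, with 419.9 and 297 HpM in the double mutant and 167 and 141 HpM in *hop1-loop2 rad50S* (log2 difference 1.20, SE 0.29, adjusted p = 0.026, limma). At chrII:650465 the double mutant had 429.9 and 369 HpM and *hop1-loop2 rad50S* 697 and 921 HpM (log2 difference −1.01, SE 0.24, adjusted p = 0.025, limma). At chrIII:125630 the *hop1-loop2 rad50S* libraries had 380 and 374 HpM, and the difference did not pass (log2 difference 0.55, SE 0.33, adjusted p = 0.27, limma). At chrII:710566 they had 8001 and 7453 HpM, and the difference did not pass either (log2 difference −0.46, SE 0.20, adjusted p = 0.15, limma).

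In 10 kb tiles, 169 were lower (14.0%) and 271 were higher (22.4%) in the double mutant than in *hop1-loop2 rad50S*. The tile at chrIV:460001 had 3703 and 3075 HpM in the double mutant, against 1842 and 2507 HpM in *hop1-loop2 rad50S* (log2 difference 0.65, SE 0.15, adjusted p = 0.0012, limma). Of the 16 chromosomes 5 were lower (31.2%) and 6 were higher (37.5%). Chromosome I held 1.02% and 1.20% in the double mutant and 0.824% and 0.909% in *hop1-loop2 rad50S* (log2 difference 0.36, SE 0.11, adjusted p = 0.042, limma). Counted on hotspot hits alone, it held 0.878% and 0.838% in the double mutant and 0.725% and 0.809% in *hop1-loop2 rad50S*, a smaller gap. Chromosome III held 2.71% and 2.65% in the double mutant and 1.98% and 1.86% in *hop1-loop2 rad50S* (log2 difference 0.48, SE 0.09, adjusted p = 0.012, limma). On hotspot hits alone its shares were 2.55% and 2.41% in the double mutant and 1.88% and 1.75% in *hop1-loop2 rad50S*. Chromosome IV, the longest, held 13.4% and 13.1% in the double mutant and 14.7% and 14.8% in *hop1-loop2 rad50S* (log2 difference −0.15, SE 0.02, adjusted p = 0.0039, limma). The log2 difference was 0.15 on chromosome VI (SE 0.04, adjusted p = 0.039, limma). It was 0.21 on V, 0.29 on XII and −0.14 on XV (SE 0.02, 0.04 and 0.02, adjusted p = 0.0039 each, limma). The higher level between hotspots in replicate 2 of the double mutant touches each of these values, and its part in them was not tested.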

How the data were processed

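CC-seq files of 4 libraries (6 with *hop1-loop2 rad50S*) were used, grouped by title. The other 40 samples were not used here. Per the study's methods, read ends were placed by the authors with TermMapper, which runs Bowtie2, on an SK1 build joined with spike-in sequences. The deposited value is HpM (an RPM unit) for each strand of each position, 1 file per replicate. Removal of duplicate reads is not given in the sources used here. Divided by the smallest value of its library, 100% of values came out whole (tolerance 0.001 hits), so whole reads were recovered. One hit was worth 0.277 and 0.974 HpM in the double mutant and 0.129 and 0.132 HpM in *rad50S*. PCR copies are not independent molecules, so hits give counting precision only.

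The mean of the 4 libraries was smoothed with a Hann window of 201 bp and cut at 0.2 HpM per bp (minimum length 25 bp, gaps under 200 bp merged). Hotspots and 10 kb tiles (mean of at least 10 HpM) were tested on log2(HpM + 1) with limma 3.58.1 (R 4.3.3, trended variance) and chromosomes on log2 shares, over these libraries, with Benjamini-Hochberg adjustment over all features. Fold changes on this scale understate those of low sites. The study's methods call CC-seq replicates biologically independent. No label states it for these libraries, and the double mutant is not in the study's list, so p-values measure the spread between libraries, which may be technical. Sites named were 5 falls and 5 rises among called hotspots of at least 50 HpM without overlap, the 5 strongest of each genotype, 3 tiles each way of at least 200 HpM, the 3 longest runs each way and the called chromosomes. Alternatives were edgeR 4.0.16 and DESeq2 1.42.0 on the recovered counts, other scales, filters, maps and tile sizes, and leaving out each library. Members, groups and tests were chosen with earlier results of these data known.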

Additional observations from a re-analysis of the deposited data

How the results depend on the processing

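Hotspots counted as higher numbered 738 on the scale reported, 1185 with edgeR and TMM, 1157 with DESeq2, 1239 when centred on the median, and 476 on the map called from *rad50S* alone. With each strand position counted once, 782 were lower and 406 higher, and this setting drops repeated breaks along with copied reads. The log2 change of −0.49 at chrIV:823281, which had not passed the test, turned to 0.051 when centred and 0.148 with each position once. Of the other values of single hotspots under an alternative, 336 kept direction and side of the threshold, 10 lost the call and 9 gained one. For tiles 95 kept both and 1 lost the call, and for called chromosomes 82 kept both and 22 lost the call. Tiles numbered 598 lower and 510 higher at 5 kb, 195 and 165 at 20 kb, where the number of tiles sets the count, and 180 were higher with the level between hotspots subtracted. Higher chromosomes numbered 2 with that level subtracted, 2 when centred, 7 with each position once and 7 with all 6 libraries in the fit. Leaving out 1 library at a time gave 879 to 1869 lower and 421 to 1028 higher hotspots, 220 to 514 lower and 204 to 494 higher tiles, and 3 lower and 1 to 3 higher chromosomes. The other pseudocounts, the filter on low values, the thresholds of 0.1 and 0.4, the map from the double mutant alone, thinning to equal depth and the removal of hotspots with 1 dominant position (chosen after seeing the data) kept the hotspot counts within 1.5 times.

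The replicate numbers 1 and 2 are not labelled as shared days. With the number as a replicate block, 1542 hotspots were lower and 797 higher, 379 and 324 tiles, and 3 and 5 chromosomes. Deviations of same-numbered libraries correlated at 0.09 over hotspots, 0.47 over tiles and −0.22 over chromosomes. With crossed numbers, an alternative chosen after seeing the data, 3 chromosomes were lower and 2 higher. Depth limits the double mutant most: 3 hits in its replicate 2 are worth 2.92 HpM.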

Other observations

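The positions of cuts inside hotspots were compared in 768 hotspots, each thinned to 200 hits per library. At the median hotspot 47.0% of hits were shared by position between the double-mutant replicates and 57.5% between the *rad50S* replicates, against 41.2% to 52.0% between genotypes. The same strand position was the strongest in 45.3% of hotspots between the double-mutant replicates, in 48.3% between the *rad50S* replicates and in 27.9% to 38.7% between genotypes. Replicate 1 of the double mutant shared more of its hits with the *rad50S* libraries (51.0% and 52.0%) than with its own replicate 2 (47.0%). Spo11 leaves ends on both strands, and a Watson hit had a Crick hit 1 bp to its right for 73.9% and 32.0% of hits in the double mutant and for 88.3% and 85.6% in *rad50S*. These shares were not thinned to equal depth, and a partner can be missed more often where a library holds fewer hits. Thinned to equal totals, 55.2% and 18.3% of strand positions had a single hit in the double mutant and 59.2% and 60.1% in *rad50S*, with 3.26 and 5.38 hits per position in the double mutant and 3.07 and 3.00 in *rad50S*. Hits of double-mutant replicate 2 were therefore stacked on fewer positions than those of the other 3 libraries at the same depth.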
